A study of Homo sapiens with 4 samples.

Results

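The genes described here are 10 imprinted genes, SNRPN, SNURF, NDN, MAGEL2, H19, IGF2, MEG3, PEG3, PEG10 and MEST, taken by gene name out of 26485 gene names in the tables. The locus of SNRPN was selected on a measured value, the FPKM of 0 that SNRPN has in SW1736 wt, so that value is part of the choice and not a result. RNA sequencing covered 2 lines of anaplastic thyroid cancer (ATC), an undifferentiated and aggressive thyroid tumour. SW1736 wt and 8505C wt are the paclitaxel-sensitive parental cells of each line. SW1736-PTX and 8505C-PTX are the resistant cells, selected over 6 months with paclitaxel (PTX), a drug that stabilises microtubules, at doses raised from 1 nM up to a last dose of 1.5 µM, in which they were kept. No allele, agent or host other than PTX is given in the labels, and whether a resistant line is 1 clone is not stated. There was 1 library per condition, so no value has a replicate error and no difference within a line could be tested, and the only test made takes the lines as 2 pairs of wt and PTX. Differences in bulk RNA do not tell fewer expressing cells from less RNA per cell.

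An imprinted gene is transcribed, in at least some tissues, from only the maternal or only the paternal copy. This arises because DNA methylation set in the egg or the sperm marks a nearby control region. The mark is copied at each cell division by DNMT1 and UHRF1 and protected in the early embryo by zinc finger proteins such as ZFP57. Where 1 copy is silent from the start, a single further event can switch such a gene off. If the mark is lost, the silent copy can be put to work. Tumours often show changed levels of IGF2, H19 and other imprinted genes. The counts here are not split by allele and no DNA methylation was measured, so neither imprinting itself nor its loss was observed in these cells. Maternally or paternally expressed thus names the list a gene was placed in. Which copy these cells use is not known.

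Promoters of SNURF and SNRPN, H19, MEST and NDN are shown first, since DNA methylation lies on CG dinucleotides. The control region of an imprint need not be the promoter, and for H19 and IGF2 it lies between the genes. In RefSeq (GRCh38.p14), 7 of the 10 genes had a promoter entry, running from 250 bases before to 50 bases after the transcription start. Each is printed 5′ to 3′ on the strand of the gene, with every CG in capitals. SNURF and SNRPN share 1 promoter, at chr15:24954737-24955036 on the plus strand. Further SNRPN entries, not shown, start at chr15:24856321 (7 CG), chr15:24862722 (2 CG) and chr15:24956050 (11 CG). The H19 promoter lies at chr11:2001217-2001516 on the minus strand, and that of NDN at chr15:23687256-23687555 on the minus strand. The canonical H19 transcript used below to bound a 0 starts elsewhere, at chr11:2004552. Of the 5 MEST entries, the one richest in CG, at chr7:130491835-130492134 on the plus strand, is given.
SNURF and SNRPN: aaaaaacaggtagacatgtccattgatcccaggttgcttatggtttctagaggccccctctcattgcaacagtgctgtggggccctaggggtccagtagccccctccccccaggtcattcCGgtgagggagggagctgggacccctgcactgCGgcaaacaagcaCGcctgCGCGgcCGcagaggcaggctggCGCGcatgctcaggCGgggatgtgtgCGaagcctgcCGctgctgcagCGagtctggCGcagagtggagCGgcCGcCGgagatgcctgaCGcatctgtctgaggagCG
H19: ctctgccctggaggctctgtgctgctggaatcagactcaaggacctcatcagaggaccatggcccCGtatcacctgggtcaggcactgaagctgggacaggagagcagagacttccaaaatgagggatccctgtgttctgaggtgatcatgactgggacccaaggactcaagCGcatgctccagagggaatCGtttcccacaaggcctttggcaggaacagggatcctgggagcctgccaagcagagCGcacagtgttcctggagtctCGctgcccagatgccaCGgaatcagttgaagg
MEST: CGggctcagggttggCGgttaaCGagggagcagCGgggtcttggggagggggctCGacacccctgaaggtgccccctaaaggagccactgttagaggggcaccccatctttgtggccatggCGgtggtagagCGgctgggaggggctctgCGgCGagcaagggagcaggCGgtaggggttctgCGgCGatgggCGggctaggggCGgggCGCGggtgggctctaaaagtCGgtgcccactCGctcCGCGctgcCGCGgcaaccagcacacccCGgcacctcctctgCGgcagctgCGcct
NDN: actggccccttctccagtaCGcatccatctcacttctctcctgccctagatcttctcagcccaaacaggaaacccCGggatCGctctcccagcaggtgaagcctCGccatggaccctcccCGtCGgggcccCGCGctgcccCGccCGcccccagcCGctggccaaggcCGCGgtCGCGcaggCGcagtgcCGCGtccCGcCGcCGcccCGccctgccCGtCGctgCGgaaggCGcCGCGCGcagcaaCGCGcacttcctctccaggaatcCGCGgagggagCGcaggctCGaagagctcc
Over 35116 promoters of 300 bases the median was 14 CG. The shared SNURF and SNRPN promoter held 18 CG, a number reached by 44.5% of all promoters, while the H19 promoter held 6. The MEST promoter held 25, and that of NDN held 35, as many as only 14.1% of promoters. TGCCGC, the hexamer that ZFP57 binds when it is methylated, was searched on both strands, where it was present in 16.7% of all promoters and overlaps the CG marked above. It occurred 2 times in the SNURF and SNRPN promoter, 3 times in that of MEST, 1 time in that of NDN and 0 times in the H19 window. These matches describe the letters only.

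Depth lay between 43.5 and 57.9 M (mega) aligned reads per library, and between 32.0% and 39.2% of gene names were listed at 0. Over 14692 genes above 0.5 FPKM in at least 1 library, the library labelled SW1736-PTX was closer to 8505C-PTX (Pearson r = 0.933 across genes) and to 8505C wt (0.873) than to its own parental line (0.767). For comparison, r was 0.877 for the 8505C pair and 0.845 for the wt pair. The 33 imprinted genes among them include SNRPN, SNURF, IPW, PWAR5 and PWARSN, of the locus chosen for its 0 in SW1736 wt. The distance of this set from SW1736 wt is thus partly set by the choice. In this set the same order held. The median absolute log2 difference from the library labelled SW1736-PTX was 0.43 for 8505C-PTX, 0.80 for 8505C wt and 2.57 for SW1736 wt. Transcription factors of the thyroid lineage were split the same way: PAX8 had 38.2 FPKM in SW1736 wt and at most 0.206 in the other 3 libraries, whereas NKX2-1 was listed at 0 in SW1736 wt and had 30.5 to 39.0 elsewhere. The thyroid markers TG, TSHR, SLC5A5, SLC26A4, DIO1 and DUOX2 did not pass 0.5 FPKM in any library, and of the markers reported here PAX8, FOXE1 and NKX2-1 alone did. EPCAM and CDH1 stayed at or below 0.0806 FPKM, while KRT8, KRT18 and VIM were abundant in all 4 libraries. ABCB1, the drug efflux pump, had 302 FPKM in the library labelled SW1736-PTX and 497 in 8505C-PTX, against 0 and 0.363 in the wt libraries. The part of this likeness in any SW1736 difference given here was not tested, and values against 8505C wt in place of SW1736 wt are given for the 10 genes and for some of the others.

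Levels are FPKM, fragments per kilobase of gene and M aligned reads, and thus per length. Where 4 values follow each other without names, their order is SW1736 wt, SW1736-PTX, 8505C wt and 8505C-PTX. A gene was compared in a pair of libraries when it passed 0.5 FPKM in at least 1 of them, and called when log2((a + 0.1)/(b + 0.1)) lay beyond 1.5 in either direction. In SW1736-PTX against SW1736 wt, 6 of the 10 genes were compared: SNRPN, SNURF, H19 and IGF2 were called higher, and PEG10 and MEST were called lower. Of all 14202 genes compared in this pair, 15.7% were called higher and 10.2% lower, and since the choice of genes used this pair, nothing is read from the count. In 8505C-PTX against 8505C wt, 4 genes were compared, SNRPN and MEST were called higher and none was called lower, beside 15.0% and 5.89% of 13794 genes. The remaining 4 genes, NDN, MAGEL2, MEG3 and PEG3, did not pass 0.5 FPKM in any library. Over both lines, a limma fit with the line as a block, which has 1 residual degree of freedom for each gene, called 0.00% of 14692 genes at a Benjamini-Hochberg adjusted p under 0.05, while 3131 had an unadjusted p under 0.05. The lowest adjusted p over all genes was 0.107. This fit pairs the libraries by the line in their labels, and it was added after the data were seen.

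**Figure D1:**
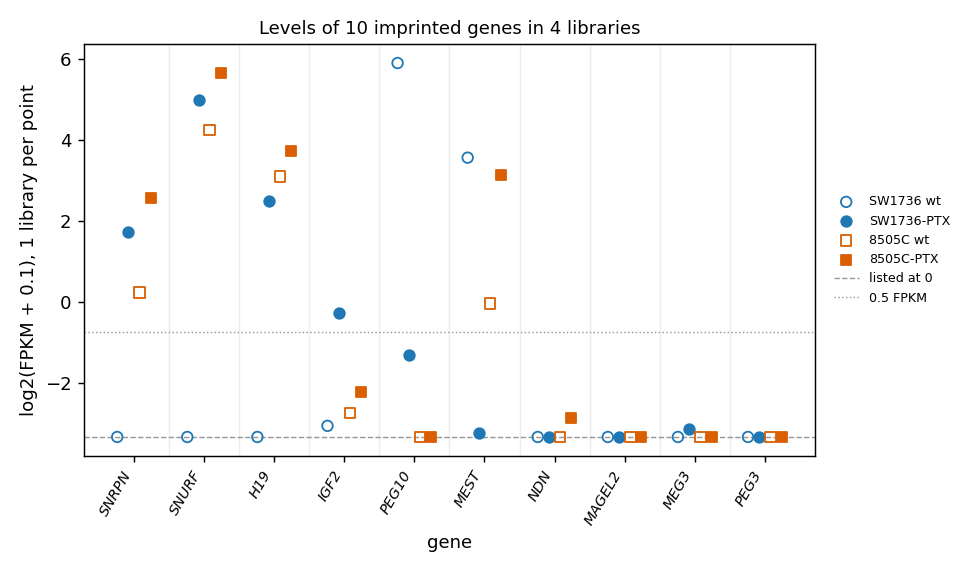
Levels of the 10 imprinted genes, as log2(FPKM + 0.1) on the vertical axis, with 1 point per library (circles for SW1736, squares for 8505C, filled for PTX). SNRPN, SNURF and H19 lie on the line for 0 in SW1736 wt only, PEG10 stands at 59.9 FPKM in SW1736 wt and at most 0.304 in the others, and MEST is high in SW1736 wt and 8505C-PTX.

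Between the parental lines, 5 genes were compared. PEG10 and MEST were called higher in SW1736 wt than in 8505C wt, and SNRPN, SNURF and H19 lower, where 9.92% of 13457 genes were called higher and 7.73% lower, and nothing is read from the count because the 0 of the SNRPN locus in SW1736 wt chose SNRPN and SNURF. Between the resistant libraries, 5 genes were compared, IGF2 was called higher in SW1736-PTX and MEST lower, beside 4.09% and 3.70% of 13986 genes. Against 8505C wt, the library labelled SW1736-PTX had SNRPN and IGF2 called higher and MEST lower, beside 15.1% and 5.23% of 13824 genes. The pattern of 0 in SW1736 wt with more than 0.5 FPKM in each of the other libraries was shown by 2.13% of the 11856 genes above 0.5 FPKM in those libraries. SNRPN and SNURF have it by choice, and H19 was the only other of the 10 genes that had it. PEG10 showed the reverse, above 5 FPKM in SW1736 wt and below 0.5 in the others, as did 0.950% of the 8419 genes above 5 FPKM in SW1736 wt.

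The SNRPN locus on 15q11-q13 is a long transcription unit read from the paternal copy. It starts with SNURF, a small nuclear protein, continues into SNRPN, which encodes SmN, a core protein of the spliceosome made mainly in brain and heart, and runs on as a noncoding host transcript of the SNORD116 and SNORD115 small nucleolar RNAs. Loss of the paternal copy causes Prader-Willi syndrome, and loss of maternal UBE3A, which lies further along on the opposite strand, causes Angelman syndrome. In the tables SNRPN spans chr15:24823647-24978582 and SNURF spans chr15:24954923-24978582 (hg38, plus strand), so the rows overlap and reads of the shared transcript had to be divided between them.

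SNURF had 0 FPKM in SW1736 wt, 31.5 in the library labelled SW1736-PTX, 18.96 in 8505C wt and 50.4 in 8505C-PTX. SW1736 wt thus stood alone, while the other libraries all lay well above the limit of 0.5 FPKM. Taking 3 reads as the most that a 0 allows, or 0.0577 FPKM in SW1736 wt, SNURF was at least 546-fold higher in the library labelled SW1736-PTX and at least 328-fold higher in 8505C wt. These limits cover counting error only. In the 8505C line it was 2.66-fold higher in the resistant cells (log2 fold change 1.41), which misses the limit of 1.5, and the library labelled SW1736-PTX was 1.66-fold above 8505C wt (0.73).

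SNRPN had 0, 3.26, 1.08 and 5.82 FPKM in SW1736 wt, SW1736-PTX, 8505C wt and 8505C-PTX. Its log2 fold change was 5.07 in the SW1736 pair and 2.33 in the 8505C pair, and 1.51 in the library labelled SW1736-PTX against 8505C wt, so SNRPN was the only one of the 10 genes called higher in both resistant lines. That call rests on the FPKM column. The ratio of read coverage to FPKM of the SNRPN row was 0.148, 0.111 and 0.137 in the libraries where it was above 0, whereas most genes shared a ratio of 4.34, 3.27 and 4.02. With coverage divided by the shared ratio, SNRPN stood at only 0.111, 0.0368 and 0.199, in the same order as the FPKM. Its log2 fold changes were then 1.08 and 1.13, and neither passed the limit. All these levels lie below 0.5, where the added 0.1 shrinks log2 fold changes, so the smaller values do not show an opposing change. The sum of SNRPN and SNURF, each still divided by its own length, was 0, 34.8, 20.0 and 56.2 FPKM, of which SNURF made up 89.7% to 94.6%. On that sum 8505C-PTX was 2.81-fold above 8505C wt (log2 fold change 1.48), just short of the limit.

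SmN is 1 of the 8 Sm core proteins examined. SNRPB, which encodes the close paralogue SmB, had 573, 247, 432 and 220 FPKM, far above SNRPN in every library. Its log2 fold change was -1.21 in the SW1736 pair and -0.97 in the 8505C pair, neither past the limit. Among the Sm genes other than SNRPN, none was called in the SW1736 pair, and SNRPG alone was called lower in the 8505C pair, from 155 to 51.1 FPKM (-1.60).

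The downstream part of the unit had the same order of libraries at 0 and above 0. IPW, a paternally expressed noncoding RNA, had 0, 0.981, 0.692 and 1.41 FPKM in SW1736 wt, SW1736-PTX, 8505C wt and 8505C-PTX. PWAR5, a further noncoding transcript of the unit, had 0, 1.05, 1.10 and 1.73 in the same order. Both were called higher in the SW1736 pair (log2 fold changes 3.43 and 3.53), and both shared the pattern of 0 in SW1736 wt with over 0.5 FPKM elsewhere. Neither was called in the 8505C pair (0.93 and 0.61), nor in the library labelled SW1736-PTX against 8505C wt (0.45 and -0.05). PWARSN had 0, 0.470, 0.680 and 0.639 FPKM and was not compared in the SW1736 pair. Of 30 SNORD116 names, 0 were above 0 in SW1736 wt, 16 in the library labelled SW1736-PTX, 14 in 8505C wt and 19 in 8505C-PTX, with summed FPKM of 0, 7.75, 7.08 and 13.8. All 48 SNORD115 names were at 0 in every library. The mature small nucleolar RNAs lack the poly(A) tail for which mRNA libraries select, so these rows cannot be told from host transcript.

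Upstream of the unit, toward the centromere, lie the paternally expressed MKRN3, MAGEL2 and NDN. MKRN3, a ubiquitin ligase that holds back puberty, had 1.03 FPKM in SW1736 wt, 2.35 in the library labelled SW1736-PTX, 1.95 in 8505C wt and 2.05 in 8505C-PTX, and was called in neither line. It was thus detected in SW1736 wt, where every row of the SNRPN unit was at 0. NDN (chr15:23685407-23687303, minus strand), which encodes necdin, a growth suppressor of neurons, had 0 FPKM in 3 libraries and 0.0377 in 8505C-PTX, the equivalent of 3.84 reads. MAGEL2 (chr15:23643549-23647846, minus strand), which encodes a regulator of endosomal protein recycling, was at 0 in all 4 libraries, where 3 reads would have given between 0.0120 and 0.0160 FPKM. Of the 15 paternally expressed genes of 15q11-q13 with a row, 9 did not pass 0.5 FPKM in any library, including PWRN1 to PWRN4. Of the 6 compared in the 8505C pair, 1 was called higher (SNRPN) and 0 lower, where 15.0% and 5.89% of all genes were, with a median of 0.77 beside 0.11 over all genes compared. In the SW1736 pair 4 of 5 were called higher, all of them from the unit chosen for its 0 in SW1736 wt, so that count is a description only.

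UBE3A and ATP10A, listed as the maternally expressed genes of the region, differed from each other. UBE3A, the ubiquitin ligase of Angelman syndrome, had 22.1 FPKM in SW1736 wt, 11.2 in the library labelled SW1736-PTX, 18.3 in 8505C wt and 9.96 in 8505C-PTX. It was lower in each resistant library, by log2 fold changes of -0.97 and -0.87, which do not reach the limit. ATP10A, a phospholipid flippase, had 0, 3.78, 0 and 0.480 FPKM, and its call in the SW1736 pair (log2 fold change 5.28) was the same against 8505C wt. The 5 genes of the region that are not imprinted and were compared, TUBGCP5, CYFIP1, NIPA2, NIPA1 and HERC2, were called in neither line. Their levels in SW1736 wt ran from 3.82 FPKM for NIPA1 to 30.8 for CYFIP1, so genes on both sides of the SNRPN unit were read in that library.

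**Figure D2:**
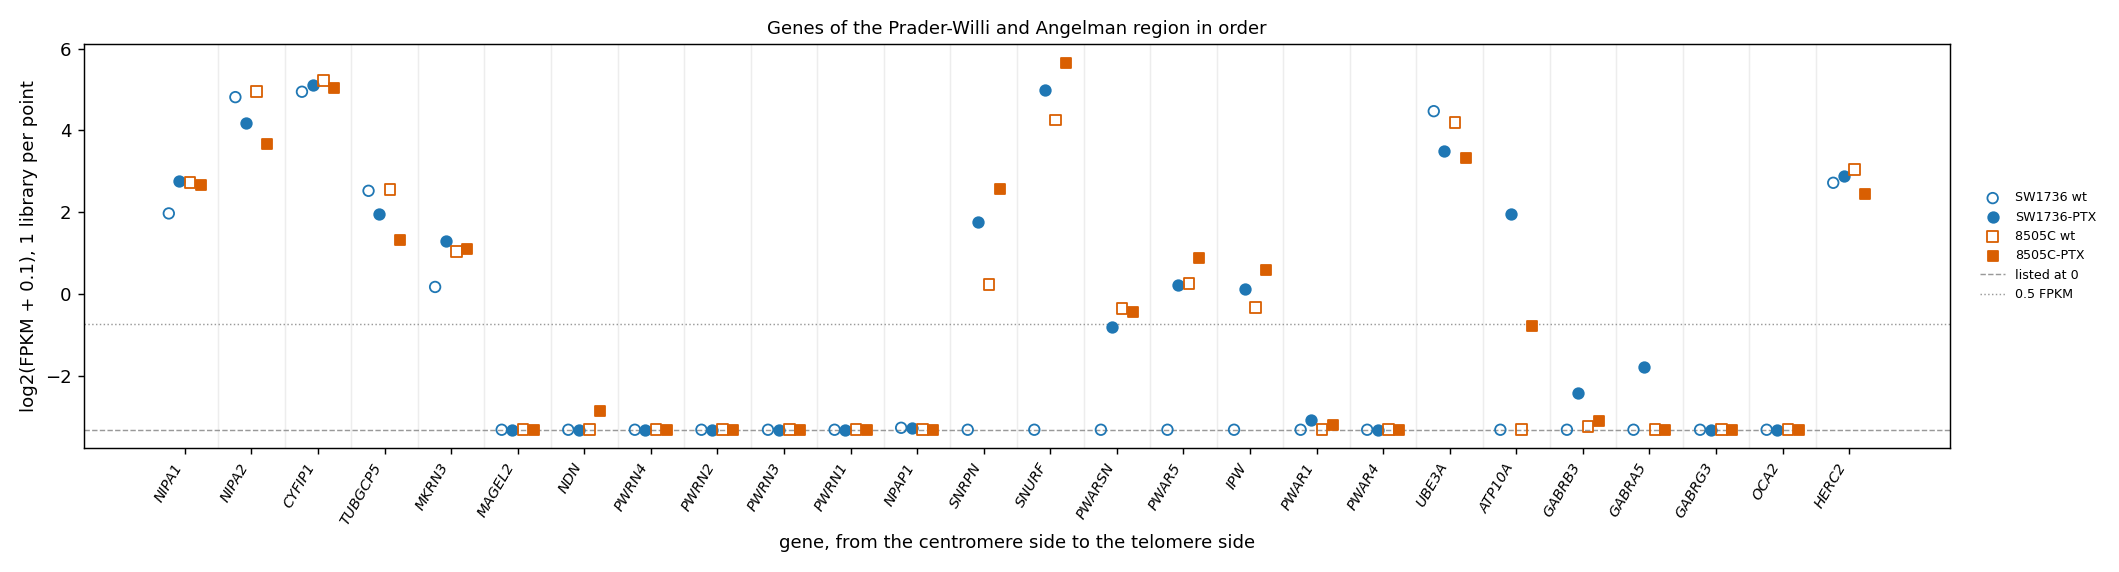
Genes of 15q11-q13 from the centromere side to the telomere side, as log2(FPKM + 0.1), with 1 point per library. From SNRPN to IPW the open circle of SW1736 wt lies on the line for 0, while NIPA1 to TUBGCP5, MKRN3, UBE3A and HERC2 are above 0.5 FPKM in all 4 libraries.

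H19 and IGF2 share an imprinted domain on 11p15. H19 is a maternally expressed noncoding RNA, and IGF2, expressed from the paternal copy, encodes insulin-like growth factor 2, a fetal growth factor. CTCF bound to an unmethylated control region between them keeps enhancers on H19 and off IGF2. H19 had 0 FPKM in SW1736 wt, 5.55 in the library labelled SW1736-PTX, 8.48 in 8505C wt and 13.2 in 8505C-PTX. It was at least 100.1-fold higher in the library labelled SW1736-PTX than in SW1736 wt, taking 3 reads for the 0, and its log2 fold change was 5.82. Against 8505C wt the library labelled SW1736-PTX was lower, by a log2 fold change of -0.60, and 8505C-PTX was 1.56-fold higher (0.63), neither called. H19 has 2 rows, at chr11:1995176-2001466 (minus strand) and on an unplaced sequence of chromosome 11, with nearly the same value in each (4.24 and 4.24 FPKM in 8505C wt), and they were summed here.

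IGF2 (chr11:2129112-2149603, minus strand) was low throughout, with 0.0210 FPKM in SW1736 wt, 0.733 in the library labelled SW1736-PTX, 0.0512 in 8505C wt and 0.116 in 8505C-PTX. On the canonical transcript these levels equal 5.73, 237, 12.4 and 34.6 reads. The library labelled SW1736-PTX was thus 35.0-fold above SW1736 wt and 14.3-fold above 8505C wt, with log2 fold changes of 2.78 and 2.46 on the scale with 0.1 added. In the 8505C pair IGF2 did not pass 0.5 FPKM and was not compared. The antisense IGF2-AS and the readthrough INS-IGF2 were at 0 in all 4 libraries.

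H19 also carries miR-675 in its first exon, and an intron of MEST carries miR-335. Their mature sequences (RefSeq, GRCh38.p14) are shown with the seed, bases 2 to 8, in capitals, because the seed sets which mRNAs a miRNA binds. The 4 seeds are all different.
hsa-miR-675-5p: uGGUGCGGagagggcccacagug
hsa-miR-675-3p: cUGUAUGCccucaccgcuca
hsa-miR-335-5p: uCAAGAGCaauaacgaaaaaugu
hsa-miR-335-3p: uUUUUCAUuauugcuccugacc
The row of MIR675 had 0.0485 FPKM in SW1736 wt, 0.337 in the library labelled SW1736-PTX, 0.362 in 8505C wt and 0.338 in 8505C-PTX, below the limit of 0.5 in each. MIR335 was at 0 in all 4 libraries. An mRNA library reads the host transcript and not the mature miRNA, so neither level is known from these data.

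The other imprinted genes of 11p15 belong to a second, neighbouring domain. CDKN1C, the cyclin-dependent kinase inhibitor p57, which is maternally expressed and limits growth, had 0.878 FPKM in SW1736 wt, 14.1 in the library labelled SW1736-PTX, 0.847 in 8505C wt and 13.8 in 8505C-PTX. It was 16.1-fold higher in the SW1736 pair and 16.4-fold higher in the 8505C pair, with the wt libraries alike and the PTX libraries alike. SLC22A18, a maternally expressed transporter, had 2.02, 9.61, 0.821 and 10.6 FPKM and was called higher in both lines (log2 fold changes 2.19 and 3.54). KCNQ1, a potassium channel, had 0, 4.85, 0 and 1.14 FPKM and was also called in both, but its ratio of coverage to FPKM was only 0.202 and 0.187, as for SNRPN, and its level is uncertain. KCNQ1OT1, the paternal noncoding RNA that silences this domain, stayed between 0.0587 and 0.124 FPKM. PHLDA2, a maternally expressed brake on placental growth, had 109.5 to 207 FPKM and was not called.

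PEG10 and SGCE sit head to head on 7q21 and share a promoter region, both read from the paternal copy. PEG10 derives from a retrotransposon and is needed for the placenta, and SGCE encodes epsilon-sarcoglycan, a membrane protein whose loss causes myoclonus-dystonia. PEG10 (chr7:94656325-94669694, plus strand) had 59.9 FPKM in SW1736 wt, 0.304 in the library labelled SW1736-PTX and 0 in both 8505C libraries. SGCE (chr7:94585224-94656209, minus strand) had 30.2, 0.151, 0 and 0 FPKM. SW1736 wt was therefore the only library with either gene above 0.5 FPKM. PEG10 was 197-fold lower and SGCE 200.1-fold lower in the library labelled SW1736-PTX, with log2 fold changes of -7.21 and -6.92. Against 8505C wt the direction turned, since that same library was at least 11.4-fold higher for PEG10 and at least 4.09-fold higher for SGCE, with 3 reads for the 0. On the same terms, SW1736 wt was above 8505C wt by at least 2247-fold for PEG10 and at least 819-fold for SGCE. The low levels in the library labelled SW1736-PTX equal 45.5 reads for PEG10 and 16.3 for SGCE. Neighbours on either side did not share the pattern. TFPI2, an inhibitor of plasmin and other proteases, had 80.5, 494, 51.9 and 188 FPKM and was called higher in both lines (2.61 and 1.85). PPP1R9A, which encodes neurabin, had 0.547, 2.99, 1.06 and 1.47 FPKM and was called higher in the SW1736 pair (2.25), but not against 8505C wt (1.41). CASD1, between TFPI2 and SGCE, had 3.12, 6.94, 2.95 and 4.43 FPKM.

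MEST, a paternally expressed hydrolase gene of 7q32 tied to fetal growth (chr7:130486175-130506297, plus strand), moved in opposite directions in the lines. It had 11.8 FPKM in SW1736 wt, 0.00653 in the library labelled SW1736-PTX, 0.879 in 8505C wt and 8.69 in 8505C-PTX. The highest libraries were thus a wt library of 1 line and a PTX library of the other. The log2 fold change was -6.80 in the SW1736 pair and 3.17 in the 8505C pair, and the difference between them was not tested. The level in the library labelled SW1736-PTX equals about 1 read, inferred from FPKM, transcript length and depth because no read counts were given. On such inferred reads, the ratio to SW1736 wt, 1806-fold, has a 95% interval for counting error from 324 to 71367. Intervals of this kind rest on the FPKM column alone. Against 8505C wt the library labelled SW1736-PTX was also lower (log2 fold change -3.20), with a ratio of 134-fold and an interval from 23.6 to 5357. In the 8505C pair the resistant cells were 9.89-fold higher. The ratio of coverage to FPKM was 1.21 to 1.65 for MEST, below that shared by most genes, and on scaled coverage its levels were 4.42, 0.00247, 0.325 and 3.21, with the same order.

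CPA4, a maternally expressed carboxypeptidase gene in the same region (chr7:130293134-130324180, plus strand), was also called in opposite directions in the lines. It had 96.1 FPKM in SW1736 wt, 16.8 in the library labelled SW1736-PTX, 11.0 in 8505C wt and 32.3 in 8505C-PTX (log2 fold changes -2.50 and 1.55). Against 8505C wt the library labelled SW1736-PTX was not lower but higher, by 0.61 on the log2 scale, and not called. COPG2, which overlaps the end of MEST on the opposite strand and encodes a subunit of the COPI coat, had 16.8, 7.34, 8.02 and 5.75 FPKM and was called in neither line. MESTIT1, an RNA antisense to MEST, was at 0 in all 4 libraries.

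**Figure D3:**
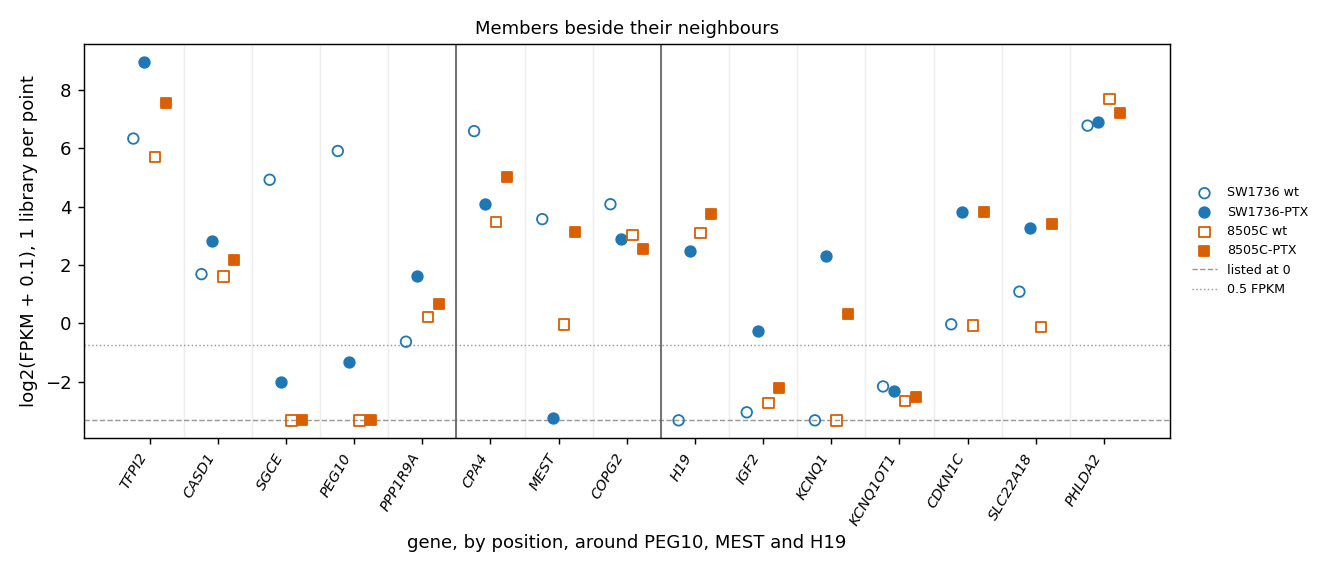
Levels of members and neighbours, as log2(FPKM + 0.1), with 1 point per library and vertical lines between 7q21, 7q32 and 11p15. PEG10 and SGCE are high in SW1736 wt alone, MEST and CPA4 are highest in SW1736 wt and next highest in 8505C-PTX, and CDKN1C and SLC22A18 are higher in both PTX libraries.

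MEG3 and PEG3 gave next to nothing. MEG3 (chr14:100826108-100861023, plus strand), a maternally expressed noncoding RNA with growth-suppressing activity, had 0 FPKM in 3 libraries and 0.0145 in the library labelled SW1736-PTX, less than 3 reads would give. The other genes of its domain were no higher: DLK1, MEG8 and MEG9 were at 0 throughout, and RTL1 reached 0.0108. PEG3 (chr19:56810077-56840726, minus strand), a paternally expressed zinc finger gene, was at 0 in all 4 libraries, as were its neighbours ZIM2, USP29 and MIMT1. For PEG3, 3 reads would have given at most 0.00787 FPKM.

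Across the wider list of 63 imprinted genes, 59 had a row (SNHG14, PWAR6, PEG13 and MCTS2 were not analysed here), 26 did not pass 0.5 FPKM in any library and 16 of those were at 0 in every library. In the SW1736 pair, 32 were compared, 16 called higher and 5 lower, beside 15.7% and 10.2% of all genes, and the median log2 fold change was 1.51 beside 0.01 over all genes. In the 8505C pair, 27 were compared, 10 called higher and 0 lower, beside 15.0% and 5.89% of all genes, and the median was 0.80 beside 0.11. Without the 10 genes, 12 of 26 were called higher and 3 lower in the SW1736 pair (median 1.07), IPW and PWAR5 of the chosen locus among them, and 8 of 23 higher and 0 lower in the 8505C pair (median 0.79). In the library labelled SW1736-PTX against 8505C wt, 9 of 30 were called higher and 1 lower, beside 15.1% and 5.23% of all genes. Of 17 paternally expressed genes compared in the SW1736 pair, 8 were called higher and 3 lower. SNURF, SNRPN, IPW and PWAR5, of the locus chosen for its 0 in SW1736 wt, were among those 8. Of 15 maternally expressed genes, 8 were called higher and 2 lower. Over all genes, 15.7% were called higher and 10.2% lower. In the 8505C pair, 4 of 14 paternally expressed genes, SNRPN among them, and 6 of 13 maternally expressed genes were called higher. None was called lower, beside 15.0% higher and 5.89% lower over all genes. The difference between the parental groups was not tested.

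SNRPN, CDKN1C, SLC22A18, KCNQ1, TFPI2 and NLRP2 were called higher in both lines, and none of the list was called lower in both. The share of all genes called in both lines was not computed, so nothing is read from their number. The calls of SNRPN and KCNQ1 rest on rows whose coverage is low for their FPKM. In the limma fit over both lines, 11 of the 33 imprinted genes tested had an unadjusted p under 0.05, as did 3131 of all 14692 genes. SNRPN and SNURF, of the locus chosen for its 0 in SW1736 wt, were among the 11. The lowest adjusted p among the 33 was 0.119, for CDKN1C with a log2 fold change of 3.87 ± 0.43 (SE, 2 pairs). TFPI2 had 2.23 ± 0.32 and SLC22A18 2.87 ± 0.53, higher in 2 of 2 pairs, with adjusted p of 0.119 and 0.120 from limma. NLRP2, an oocyte and inflammasome gene, had 0, 4.13, 0.318 and 4.27 FPKM in SW1736 wt, SW1736-PTX, 8505C wt and 8505C-PTX. ZDBF2, FAM50B, ZNF331 and PPP1R9A were called higher in the SW1736 pair alone, and each was less than 1.5 on the log2 scale from 8505C wt. ZNF597, a zinc finger gene, had 1.03 FPKM in SW1736 wt and at most 0.00769 elsewhere, so that its call as lower (-3.39) has no counterpart against 8505C wt. In the 8505C pair alone, L3MBTL1, a chromatin-compacting protein gene, was called higher (0.439 to 1.95 FPKM), and so was GNAS-AS1 (0.184 to 1.00), which overlaps GNAS on the opposite strand and may take reads from it, the use of strand in counting not being given in the sources used here. GNAS, GRB10, IGF2R, BLCAP and INPP5F were expressed and not called in either line.

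**Figure D4:**
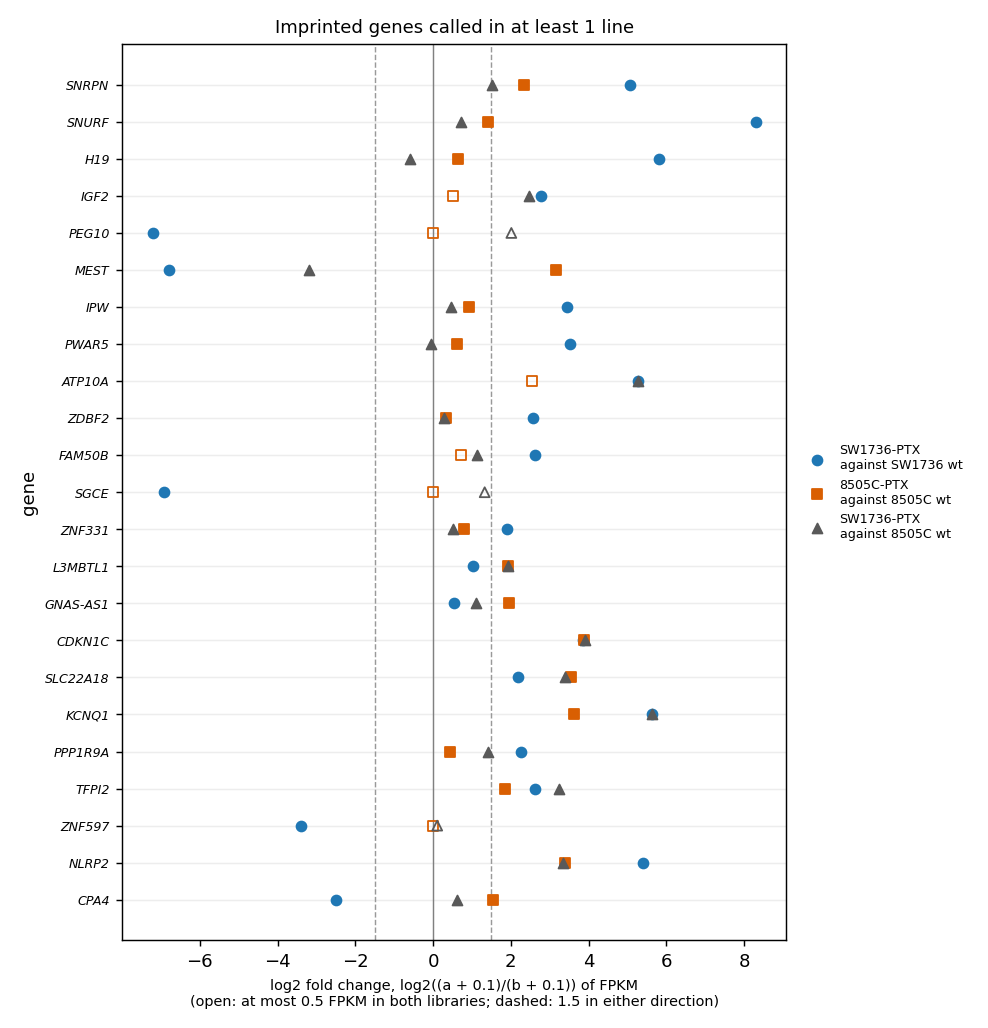
Log2 fold changes, log2((a + 0.1)/(b + 0.1)) of FPKM, of the 23 imprinted genes called in at least 1 line, for the SW1736 pair (circles), the 8505C pair (squares) and SW1736-PTX against 8505C wt (triangles). Dashed lines mark 1.5 in either direction and open symbols genes at or below 0.5 FPKM in both libraries. MEST and CPA4 have circles and squares on opposite sides of the dashed lines.

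Enzymes and proteins that write or keep imprints were examined next, 18 of 26 being compared in each line. In the SW1736 pair 2 were called lower, beside 10.2% of all genes, and in the 8505C pair 3, beside 5.89%. None was called higher in either pair, beside 15.7% and 15.0% of all genes. UHRF1, which recruits DNMT1 to newly replicated DNA, had 77.5 FPKM in SW1736 wt, 13.4 in the library labelled SW1736-PTX, 58.2 in 8505C wt and 6.43 in 8505C-PTX, and was called lower in both lines (log2 fold changes -2.52 and -3.16). HELLS, a chromatin remodeller needed for DNA methylation, had 21.0, 4.66, 14.9 and 3.74 FPKM and was called lower in both (-2.14 and -1.97). DNMT1, the maintenance methyltransferase, had 87.5, 35.5, 55.3 and 17.3 FPKM and was called lower in the 8505C pair only (-1.30 and -1.67). Beside them stand PCNA, MCM2 and MKI67, genes of DNA synthesis and division added after these values were seen. PCNA had 386, 104, 258 and 79.7 FPKM and MKI67 109.5, 19.9, 62.8 and 18.0, both called lower in both lines. MCM2 had 57.1, 30.9, 111 and 22.5 and was called lower in the 8505C pair only. Their part in the levels of UHRF1, HELLS and DNMT1 was not tested. DNMT3A, a de novo methyltransferase, had 1.98, 5.46, 2.81 and 5.80 FPKM and did not pass the limit. ZNF445, TRIM28, SETDB1, CTCF and SMCHD1 were expressed and not called, and ZFP57 was at 0 in 3 libraries and 0.0862 in the library labelled SW1736-PTX. The median over the list was -0.36 in the SW1736 pair and -0.30 in the 8505C pair, beside 0.01 and 0.11 over all genes. Against 8505C wt, the library labelled SW1736-PTX also had UHRF1 (-2.11) and HELLS (-1.66) called lower. MCM2 (-1.84) and MKI67 (-1.65) were called lower there too, and PCNA (-1.31) was not called.

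**Figure D5:**
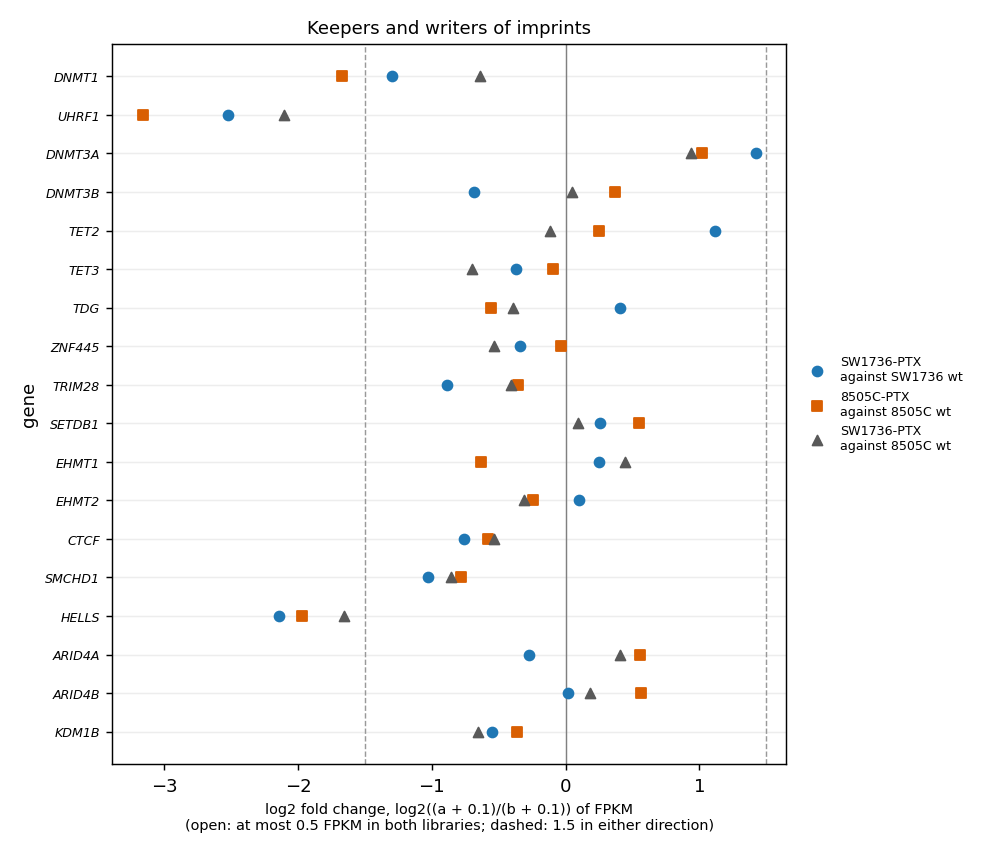
Log2 fold changes of the 18 keepers and writers of imprints above 0.5 FPKM, with symbols as for the imprinted genes. UHRF1 and HELLS lie beyond -1.5 in both lines, DNMT1 in 8505C only, and no gene lies beyond 1.5.

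Genes that carry, free or receive IGF2 formed the last list. Of 16 genes for receptors, binding proteins and mRNA binders, 13 were compared in each line, with 6 called higher in each and IGF2BP2 alone called lower, in the 8505C pair, beside 15.7% higher in the SW1736 pair and 15.0% higher and 5.89% lower in the 8505C pair over all genes. IGFBP2, a carrier that binds IGF2 outside the cell, had 0.00601 FPKM in SW1736 wt, 79.1 in the library labelled SW1736-PTX, 21.8 in 8505C wt and 182 in 8505C-PTX. IGFBP5, a further carrier, had 0.498, 39.3, 0.400 and 6.57 FPKM, and IGFBP7 had 82.0, 924, 207 and 1079. PAPPA, a protease that frees IGF from IGFBP4, had 0.0513, 13.4, 0.871 and 3.36. IGFBP1, IGFBP2, IGFBP5, IGFBP7 and PAPPA were called higher in both lines. IGF1R, the receptor through which IGF2 signals, had 4.22, 15.5, 8.83 and 15.8 FPKM and was called in the SW1736 pair only (log2 fold changes 1.86 and 0.84), and not in the library labelled SW1736-PTX against 8505C wt (0.81). IGF2R, the receptor that takes IGF2 to lysosomes, had 19.6, 27.9, 47.3 and 52.9 FPKM and was called in neither line. Over the list, the median was 0.78 on the log2 scale in the SW1736 pair and 1.31 in the 8505C pair, beside 0.01 and 0.11 over all genes.

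Likeness to each gene was measured as the distance between its 4 values and those of all 14692 genes, as log2(FPKM + 0.1) centred on each gene's mean. Nearest to SNRPN were DOC2A (distance 0.156), SV2A (0.368) and DIP2C (0.373), and nearest to SNURF were SLC39A4 (0.305), PNMA2 (0.387) and SELM (0.430). For H19 they were FBXO17, ZFPM2 and MYRF, and for IGF2 C22orf23, LOC100506258 and CAMSAP3. The genes nearest to PEG10 were CDH13 (0.612), SGCE (0.862) and H1F0 (0.956). MEST had no close match, with LAMA4 at 1.32, MAMDC2 at 1.75 and NMB at 1.87. With 4 libraries such likeness is a description only.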

How the data were processed

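RNA of the 4 cell populations was sequenced as poly(A) mRNA libraries in single-end 75 bp mode. The authors converted reads with bcl2fastq 2.20, masked adapters with Cutadapt, trimmed with ERNE, aligned to hg38 with STAR and quantified genes with StringTie. The annotation and the use of strand are not given in the sources used here. The deposited tables hold read coverage per base, deposited FPKM (per kilobase of length and M aligned reads) and deposited TPM (scaled to an equal total), and no read counts. Rows of 1 gene name were summed. Genes above 0.5 FPKM in at least 1 library of a pair were compared and called beyond 1.5 on the log2((a + 0.1)/(b + 0.1)) scale. Both limits are those of the study, whereas the pseudocount and the use of 1 library were chosen here, and adding 0.1 understates changes of low genes. Depth was the ratio of coverage to FPKM shared by most genes, divided by read length. A 0 was bounded by 3 reads on the GENCODE 44 canonical transcript. Over both lines, limma 3.58.1 (R 4.3.3) was fitted to log2(FPKM + 0.1) with the line as a block and an intensity trend. Python 3.11.15, NumPy 2.4.6 and pandas 2.3.3 were used.

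The 10 genes and all lists were chosen with earlier results of these data known. Named were the 10 genes, list genes called in either line or sharing a transcript, promoter or sequence with a member, and the 3 nearest genes by pattern. Other list genes are named after their values were seen, to account for whole lists. Alternatives varied the pseudocount, filter, unit, rows, centring and limit.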

Additional observations from a re-analysis of the deposited data

Results flagged for a closer look

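MEST changed in opposite directions in the lines, with a log2 fold change of -6.80 in SW1736-PTX against SW1736 wt and 3.17 in 8505C-PTX against 8505C wt. CPA4, in the same region, had -2.50 in the SW1736 pair and 1.55 in the 8505C pair. Against 8505C wt in place of SW1736 wt, the library labelled SW1736-PTX had -3.20 for MEST and 0.61 for CPA4, which is not called, so the opposed change of CPA4 rests on SW1736 wt as the reference. With 1 library per condition, neither difference between the lines was tested.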

How the results depend on the processing

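Each condition has 1 replicate number, so that numbers pair nothing, but the labels of the lines give 2 pairs. The limma fit with the line as a block, chosen after seeing the data, called 0 genes, 0 imprinted genes and 0 of 6 members at an adjusted p under 0.05, and leaves no degree of freedom without either line. Of the counts of called genes recomputed under each alternative, 114 stayed within 1.5 times and 26 did not. Shares over all genes were not recomputed under the alternatives. The counts below therefore show only how the calls depend on the setting. No log2 fold change of a called member reversed. Of the log2 fold changes of all members, 370 kept their side of the limit, 26 fell short of it and 4 newly passed it. The 370 include NDN, MAGEL2, MEG3 and PEG3, which did not pass 0.5 FPKM in any library and had little room to change. With a pseudocount of 1, imprinted genes called higher numbered 10 in the SW1736 pair and 6 in the 8505C pair, members higher in SW1736-PTX than in 8505C-PTX 0, and members higher or lower than in 8505C wt 0 and 0. Requiring 0.5 FPKM in both libraries compares fewer genes, since it drops every gene at 0 in 1 of them: members called in the SW1736 pair were then 0 higher and 0 lower, imprinted genes 5 higher and 1 lower, imprinted genes higher in the 8505C pair 6, members of the wt pair 1 higher and 0 lower, of the PTX pair 0 and 0, and of SW1736-PTX against 8505C wt 1 and 0. Without a filter, and with TPM, 2 members (IGF2 and PEG10) were higher in SW1736-PTX than in 8505C-PTX. Centring on the median left 1 member higher in SW1736-PTX than in 8505C wt. A limit of 1 called 2 members (H19 and MEST) lower in SW1736-PTX than in 8505C-PTX, and a limit of 2 called 6 imprinted genes in the 8505C pair, 0 members higher in SW1736-PTX than in 8505C-PTX and 1 than in 8505C wt. Scaled coverage, chosen after seeing the data, left 1 member higher in the 8505C pair (MEST), and 1 higher and 0 lower in SW1736-PTX against 8505C wt. The single row with the highest FPKM moved no count. At 43.5 to 57.9 M reads, a 0 allows up to 3 reads and does not show that a gene is silent.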

Other observations

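NDN and MAGEL2 belong to the type II MAGE genes, whose proteins bind ubiquitin ligases, and 10 of 11 names of that family had a row. MAGED1 and MAGED2 were abundant, with 87.4 and 55.6 FPKM in SW1736 wt, 37.8 and 43.7 in the library labelled SW1736-PTX, 30.5 and 22.0 in 8505C wt and 58.7 and 45.9 in 8505C-PTX, and neither was called in either resistant pair. MAGED4B had 1.84 FPKM in SW1736 wt, 0.795 in 8505C wt and 0 in both PTX libraries. Its near-identical copy MAGED4 had 1.25, 0.00315, 0.420 and 0.0103 FPKM in SW1736 wt, SW1736-PTX, 8505C wt and 8505C-PTX, and the division of reads between the copies is uncertain. MAGEE1, MAGEF1 and MAGEH1 were expressed in all 4 libraries and called in neither resistant pair.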
